A study of Homo sapiens with 9 samples.

Results

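The genes described here are 10 that break down haem or move and store iron in human cells: HMOX1, BLVRA, BLVRB, FTH1, FTL, TFRC, SLC40A1, NCOA4, STEAP3 and SLC11A2. They were chosen by name, as the rows of the count table whose Ensembl identifier carries one of these symbols, and all 10 were found among 60675 gene rows. RNA was sequenced from MM.1S, a multiple myeloma line (a cancer of plasma cells) that grows in culture. For 24 h the cells received 0, 40 or 80 µM of EGCG (epigallocatechin gallate), a polyphenol abundant in green tea. There were 3 libraries at each dose, and the cells at 0 µM are called the control. All 3 groups were grown in the same medium with foetal bovine serum and antibiotics, and the sources used here do not give what the control received in place of EGCG. MM.1S is 1 line, and no label tells whether replicates came from separate cultures, so p-values cover the spread between libraries, which may be technical.

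Haem oxygenase opens the haem ring and frees its iron, and biliverdin reductase then turns the green product biliverdin into bilirubin. Iron that enters on the transferrin receptor is reduced, carried out of the endosome, and used or stored inside ferritin, a shell of heavy and light chains. Ferritin can be taken apart again in lysosomes, and ferroportin is the known exporter of iron from cells. Plasma cells make large amounts of secreted protein, and proliferating myeloma cells draw iron for division.

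Much of this control acts on the messenger RNA. The iron-responsive element is a hairpin with a bulged C and a loop that starts with CAGTG, to which the iron regulatory proteins bind when iron is scarce. In a 5′ UTR the bound protein blocks translation, and in the 3′ UTR of TFRC it protects the transcript from decay. The elements are shown because 5 of the 10 genes carry one and because ferritin and TFRC sit on opposite sides of this control. Each is printed as DNA, 5′ to 3′ on the gene's strand, from GENCODE 29 transcripts (GRCh38), with the bulged C and the 6 loop bases in capitals.
FTH1, 5′ UTR, chr11:61967574-61967602, minus strand: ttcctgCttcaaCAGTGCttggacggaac
FTL, 5′ UTR, chr19:48965335-48965363, plus strand: ctcttgCttcaaCAGTGTttggacggaac
SLC40A1, 5′ UTR, chr2:189580661-189580689, minus strand: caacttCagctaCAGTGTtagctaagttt
TFRC, 3′ UTR, chr3:196050979-196051007, minus strand: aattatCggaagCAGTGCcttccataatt
TFRC, 3′ UTR, chr3:196050575-196050603, minus strand: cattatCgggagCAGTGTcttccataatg
TFRC, 3′ UTR, chr3:196050510-196050538, minus strand: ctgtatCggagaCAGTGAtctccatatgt
TFRC, 3′ UTR, chr3:196050463-196050491, minus strand: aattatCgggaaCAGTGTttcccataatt
SLC11A2, 3′ UTR, chr12:50988269-50988297, minus strand: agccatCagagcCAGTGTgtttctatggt

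These came from a search of the sense strand for a C, 5 bases of stem and the loop CAGTGN, with at least 4 of the 5 stem positions paired to the bases after the loop, G with T allowed. The elements of FTH1, FTL, SLC40A1 and TFRC paired at all 5 positions and that of SLC11A2 at 4. The elements of FTH1 and FTL had the same base at 26 of 29 positions. Among tested genes with a UTR long enough to search, 1.62% had such a match in a 5′ UTR and 5.49% in a 3′ UTR, so a match by itself is a description. TGACNNNGC, the core of the antioxidant response element through which NRF2 acts, was sought on both strands of the 300 bases around the RefSeq start (GRCh38.p14). It was found for 1 of 8 members with a promoter sequence, NCOA4, and for 16.1% of all genes with one. HMOX1 and FTH1 had no entry there, and elements outside these 300 bases were not sought for any gene.

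At 40 µM 4 of the 10 genes rose, HMOX1, FTH1, FTL and TFRC, and none was called lower. Of all 15982 genes tested, 1.49% were called higher and 0.813% lower in that comparison. At 80 µM 5 rose, the same 4 and BLVRB, and 2 fell, BLVRA and STEAP3, where 17.4% of all genes were called higher and 17.5% lower. From 40 to 80 µM FTH1 rose again, while TFRC, BLVRA and STEAP3 fell, beside 10.9% higher and 12.1% lower (23% in all) among all genes. SLC40A1, NCOA4 and SLC11A2 passed in no comparison. The threshold for a call was an adjusted p of 0.05 (Benjamini-Hochberg, over all genes) in edgeR's quasi-likelihood test, the source of every adjusted p below. All 10 genes passed the filter on low counts. The comparisons share libraries, so their counts are not independent of each other. The median log2 fold change of the 10 was 0.66 at 40 µM, 0.52 at 80 µM and -0.03 between the doses, and that of all genes was 0.01, -0.0013 and -0.01.

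**Figure D1:**
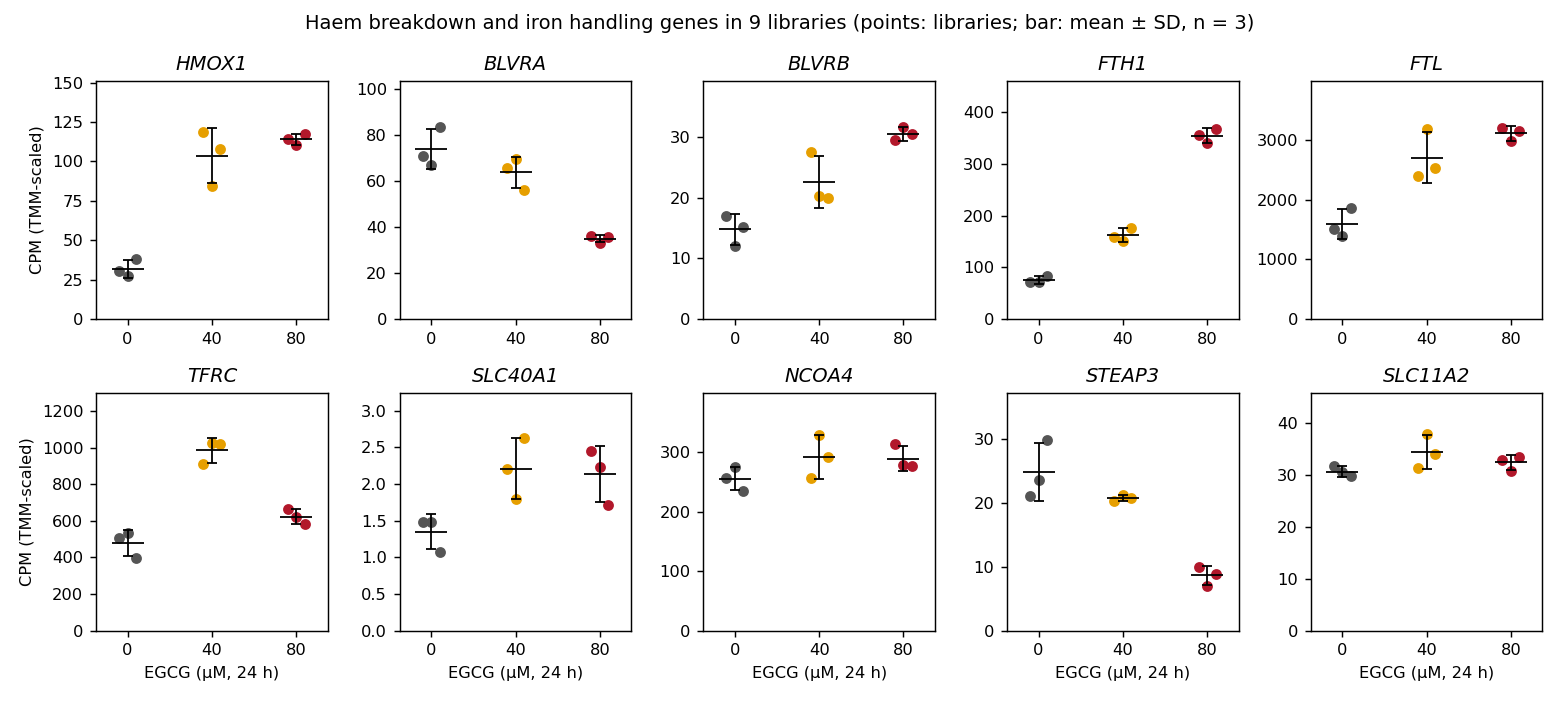
TMM-scaled CPM (counts relative to library size, linear axes from 0) of the 10 genes against the EGCG dose in µM, 1 point per library, with the mean and SD of 3 libraries in black. HMOX1 stood at 84.4 to 119 CPM at 40 µM and 111 to 117 CPM at 80 µM, FTH1 stepped up at each dose, TFRC was highest at 40 µM, and BLVRA and STEAP3 were lowest at 80 µM.

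HMOX1 (ENSG00000100292, chromosome 22, 35380361 to 35394214) encodes the inducible haem oxygenase. Its level was 30.6, 27.1 and 38.4 CPM in the control, 119, 84.4 and 108 CPM at 40 µM, and 114, 111 and 117 CPM at 80 µM. All 6 treated libraries lay above all 3 control libraries, and the ranges of the treated groups overlapped. HMOX1 rose 3.23-fold at 40 µM (log2 fold change 1.69 ± 0.16, adjusted p = 0.000484) and 3.56-fold at 80 µM (1.83 ± 0.16, adjusted p = 2.55e-05). Between the doses the log2 difference was 0.14, with a 95% interval of -0.20 to 0.48 (adjusted p = 0.547).

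The step from 40 to 80 µM was therefore set against the step from 0 to 40 µM within the same model. For HMOX1 the second step was smaller by a log2 difference of -1.55 ± 0.26 (adjusted p = 0.0465 by edgeR, where 0.131% of all genes had a smaller second step called). That call is near its threshold: it ended with a replicate block (adjusted p = 0.0889) and on leaving out any library but control replicate 3 or 40 µM replicate 2. Its log2 value stayed between -1.80 and -1.34, and the adjusted p without 1 library ran from 0.0445 to 0.129. HMOX2, the constitutive haem oxygenase, was at 52.5 ± 7.92 CPM without EGCG, 37.4 ± 6.91 at 40 µM and 31.3 ± 6.62 at 80 µM (n = 3 each), and it fell at 80 µM by 0.75 ± 0.19 on the log2 scale (adjusted p = 0.0124). Counts of HMOX1 were 0.568, 0.617 and 0.642 times those of HMOX2 in the control libraries, 2.65, 2.72 and 2.95 times at 40 µM, and 4.79, 3.32 and 3.20 times at 80 µM. The 3 groups did not overlap in this ratio (exact permutation test over the 9 libraries, p = 0.00357, the smallest it can give, and 0.00595 adjusted over the 5 ratios tested).

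The 2 biliverdin reductases moved apart. BLVRA (ENSG00000106605, chromosome 7, 43758680 to 43807342), the main biliverdin reductase of adult tissue, was at 70.7, 66.9 and 83.6 CPM in the control, 65.7, 69.3 and 56.0 CPM at 40 µM and 36.1, 33.1 and 35.5 CPM at 80 µM. Control and 40 µM overlapped, and all 80 µM libraries lay below both. BLVRA fell by 1.08 ± 0.13 on the log2 scale at 80 µM (adjusted p = 0.000158) and by 0.87 ± 0.13 between the doses (adjusted p = 0.00133), and at 40 µM its log2 fold change was -0.21 (95% interval -0.49 to 0.06). In a bulk sample, fewer cells that express a gene and less RNA per cell cannot be told apart.

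BLVRB (ENSG00000090013, chromosome 19, 40447765 to 40465840), a flavin and biliverdin reductase, was at 17.1, 12.1 and 15.2 CPM in the control, 27.5, 20.4 and 19.98 CPM at 40 µM and 29.5, 31.7 and 30.5 CPM at 80 µM. None of the 3 groups overlapped. BLVRB rose 2.06-fold at 80 µM (log2 fold change 1.05 ± 0.17, adjusted p = 0.000954). It missed the threshold at 40 µM (0.61 ± 0.17, adjusted p = 0.088, but 0.0313 by DESeq2) and between the doses (0.43 ± 0.16, adjusted p = 0.0855, but 0.0325 without 40 µM replicate 1). There were 4.14, 5.56 and 5.49 BLVRA counts per BLVRB count without EGCG, 2.39, 3.40 and 2.80 at 40 µM, and 1.23, 1.04 and 1.17 at 80 µM. The ratio fell at each dose without overlap (exact permutation test over the 9 libraries, p = 0.00357, 0.00595 adjusted over the 5 ratios).

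Ferritin is built from FTH1, the heavy chain that oxidises iron, and FTL, the light chain that helps to lay it down as mineral. FTH1 (ENSG00000167996, chromosome 11, 61959718 to 61967660) was at 72.6, 70.8 and 83.8 CPM in the control, 159, 152 and 177 CPM at 40 µM and 356, 340 and 368 CPM at 80 µM. The 3 groups lay well apart. FTH1 rose 2.14-fold at 40 µM (log2 fold change 1.10 ± 0.10, adjusted p = 0.00049) and 4.68-fold at 80 µM (2.23 ± 0.11, adjusted p = 7.39e-07). From 40 to 80 µM it rose by a further 1.13 ± 0.10 (adjusted p = 0.0002), and the 2 steps differed by 0.03, with a 95% interval of -0.36 to 0.42.

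FTL (ENSG00000087086, chromosome 19, 48965301 to 48966878) was at 1510, 1401 and 1868 CPM in the control, 2398, 3189 and 2527 CPM at 40 µM and 3207, 2976 and 3146 CPM at 80 µM. Treated libraries lay above the control, and the 2 doses overlapped because 40 µM replicate 2 reached the level of 80 µM. FTL rose 1.95-fold at 80 µM (log2 fold change 0.97 ± 0.14, adjusted p = 0.000525). At 40 µM it rose 1.70-fold (0.76 ± 0.14, adjusted p = 0.0207), a call that ended without control replicate 1 (adjusted p = 0.0872), control replicate 2 (0.0609) or 40 µM replicate 3 (0.0511), with a replicate block (0.0571) and in a fit of the 6 libraries alone (0.0701). Between the doses the difference was 0.20, with a 95% interval of -0.10 to 0.51.

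The heavy chain gained on the light chain. For each FTL count there were 0.0481, 0.0506 and 0.0449 FTH1 counts without EGCG, 0.0661, 0.0476 and 0.0699 at 40 µM, and 0.111, 0.114 and 0.117 at 80 µM. The 80 µM libraries stood above the rest, and 40 µM replicate 2 lay within the control range (exact permutation test over the 9 libraries, p = 0.0107, 0.0134 adjusted over the 5 ratios). Relative to the control, the log2 ratio was 0.34 higher at 40 µM and 1.25 higher at 80 µM, and the first value was 0.51 without 40 µM replicate 2.

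Both ferritin genes have near-identical processed copies in the genome, to which reads can be assigned by mistake. The 25 rows of FTH1 copies together held 12.4 to 14.0% as many counts as FTH1 in the control and 12.4 to 13.8% at 80 µM. At 40 µM the share was 12.1%, 23.9% and 14.1%, so replicate 2 had the highest share of the 9 libraries. For the 16 rows of FTL copies the share was 0.526 to 0.937% over the 9 libraries, and it too was highest in 40 µM replicate 2. With copies and genes summed, no call of either gene changed. BEST1, which lies on the other strand over FTH1, had 28 to 34 counts without EGCG, 42 to 87 at 40 µM and 211 to 291 at 80 µM. The strand setting of the counting is not given, so reads of this pair cannot be told apart. BEST1 never had over 291 counts where FTH1 had 952 to 5344. How reads shared by FTH1, its copies and BEST1 were counted is not given either. Any that were left out of all rows would not show in these counts.

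**Figure D2:**
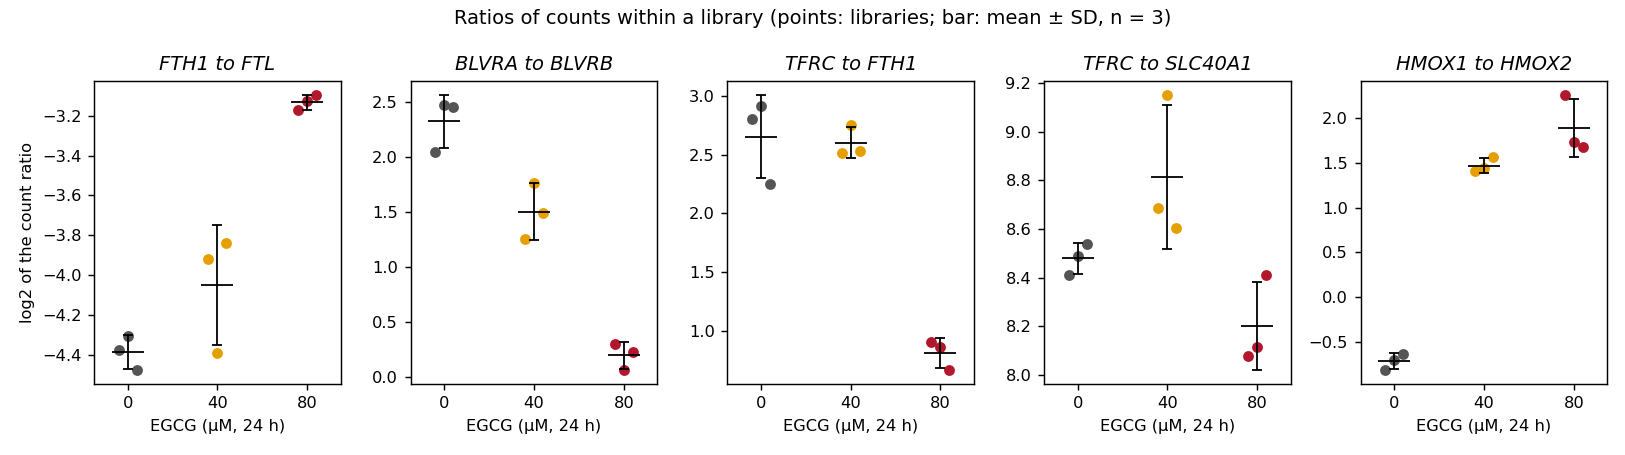
Log2 of the ratio of raw counts of 2 genes within each library against the EGCG dose in µM, 1 point per library, with mean and SD of 3 libraries in black. The FTH1 to FTL and HMOX1 to HMOX2 ratios were highest at 80 µM, the BLVRA to BLVRB ratio fell at each dose, and TFRC to FTH1 was low at 80 µM alone.

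TFRC (ENSG00000072274, chromosome 3, 196027183 to 196082189) encodes transferrin receptor 1, through which dividing cells take up iron. It was at 506, 534 and 399 CPM in the control, 907, 1023 and 1022 CPM at 40 µM and 664, 618 and 583 CPM at 80 µM. The 40 µM libraries were the highest, those at 80 µM came between, and no groups overlapped. TFRC rose 2.05-fold at 40 µM (log2 fold change 1.04 ± 0.12, adjusted p = 0.00191) and then fell by 0.66 ± 0.12 from 40 to 80 µM (adjusted p = 0.00405). It was still higher than the control at 80 µM, by 0.38 ± 0.12 (adjusted p = 0.0348). That last call ended without control replicate 1 (adjusted p = 0.0533), control replicate 3 (0.092, with the log2 value at 0.24), 80 µM replicate 1 (0.114) or 80 µM replicate 2 (0.0734), and without a filter on low counts (0.0807).

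For TFRC the second step differed from the first by -1.70 ± 0.20 on the log2 scale (adjusted p = 0.0143). The adjusted p was 0.0718 without 40 µM replicate 2 and 0.0586 with a replicate block. TFRC and HMOX1 were the members whose second step differed from the first by this test, among 47 of 15982 genes (0.294%). For STEAP3, the second step less the first was -1.01 ± 0.28 (adjusted p = 0.11 by edgeR), and DESeq2 called it (-0.99, adjusted p = 0.0476). TFRC had 6.96, 7.54 and 4.76 counts per FTH1 count without EGCG and 5.72, 6.74 and 5.79 at 40 µM, where the groups overlapped. At 80 µM it had 1.87, 1.82 and 1.59, below both (exact permutation test over the 9 libraries, p = 0.0321, also 0.0321 adjusted over the 5 ratios). The log2 ratio differed from the control by -0.05 at 40 µM, where the sign turned without control replicate 1 or 2, and by -1.84 at 80 µM.

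STEAP3 (ENSG00000115107, chromosome 2, 119223831 to 119265652) reduces iron in the endosome so that it can leave. It was at 21.1, 23.7 and 29.9 CPM in the control, 20.4, 21.3 and 20.9 CPM at 40 µM and 9.97, 7.07 and 8.96 CPM at 80 µM. The first 2 groups overlapped, and every 80 µM library lay far below them. STEAP3 fell by 1.52 ± 0.17 on the log2 scale at 80 µM (adjusted p = 0.000123) and by 1.27 ± 0.17 between the doses (adjusted p = 0.000944), and at 40 µM its log2 fold change was -0.25 (95% interval -0.62 to 0.11). STEAP3-AS1, on the other strand of the gene, had at most 8 counts in a library, against at least 111 for STEAP3.

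SLC11A2 (ENSG00000110911, chromosome 12, 50979401 to 51028566), the divalent metal transporter DMT1 that carries the reduced iron out of the endosome, was at 31.8, 30.5 and 29.7 CPM in the control, 31.3, 37.8 and 34.1 CPM at 40 µM and 32.9, 30.8 and 33.5 CPM at 80 µM. The groups overlapped throughout. Its log2 fold change was 0.16 at 40 µM (95% interval -0.08 to 0.41) and 0.08 at 80 µM (-0.17 to 0.33), so a doubling lies outside both intervals.

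NCOA4 (ENSG00000266412, chromosome 10, 46005088 to 46030714), the receptor that brings ferritin to the lysosome, was at 257, 274 and 235 CPM in the control, 256, 328 and 291 CPM at 40 µM and 313, 278 and 276 CPM at 80 µM. Control and 40 µM overlapped, and the 80 µM libraries began just above the highest control. The log2 fold change was 0.19 at 40 µM (95% interval -0.06 to 0.45) and 0.18 at 80 µM (-0.08 to 0.43). Between the doses it was -0.01 (-0.27 to 0.24), with a sign that turned under every other scaling tried.

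SLC40A1 (ENSG00000138449, chromosome 2, 189560579 to 189583758), ferroportin, had few counts: 22, 20 and 14 without EGCG, 36, 25 and 36 at 40 µM and 33, 35 and 22 at 80 µM. In CPM that was 1.35 ± 0.24, 2.21 ± 0.41 and 2.13 ± 0.38 (n = 3 each), and both treated groups lay above the control without overlap. The log2 fold change was 0.71 at 40 µM (95% interval 0.10 to 1.31, adjusted p = 0.189) and 0.66 at 80 µM (0.05 to 1.26, adjusted p = 0.0864), so no change was called at this depth. TFRC had 341, 359 and 372 counts per SLC40A1 count without EGCG, 412, 568 and 389 at 40 µM and 271, 277 and 340 at 80 µM (exact permutation test over the 9 libraries, p = 0.00357, 0.00595 adjusted over the 5 ratios). The ratio was highest at 40 µM and lowest at 80 µM. Control replicate 1 (340.5) and 80 µM replicate 3 (340.0), each with 22 SLC40A1 counts, were almost equal. The log2 difference of the ratio between 40 µM and control was 0.34, and 0.17 without 40 µM replicate 2. Without that library the exact permutation test over all 3 groups gave p = 0.0393. Neither the difference between 40 µM and control nor that between 80 µM and control was tested by itself.

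**Figure D3:**
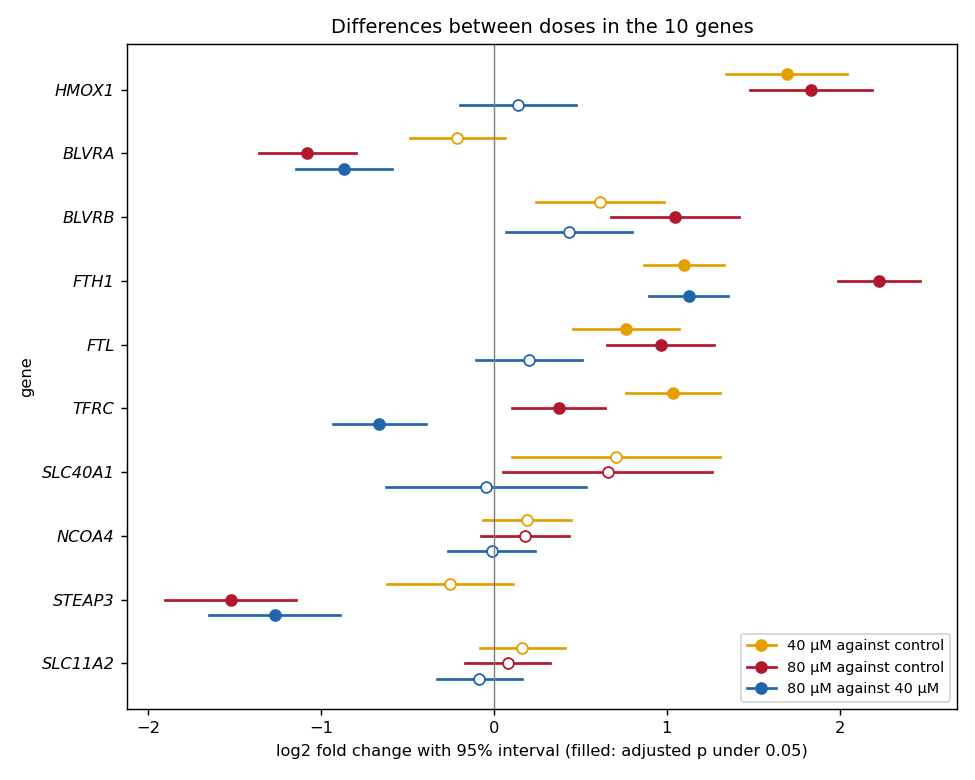
Log2 fold change of each of the 10 genes with its 95% interval (edgeR, n = 3 libraries per dose) for each dose against control and for the higher dose against the lower; filled points had an adjusted p under 0.05. FTH1 is the member called higher in all 3 comparisons, TFRC is higher at 40 µM and lower from 40 to 80 µM, and the intervals of NCOA4 and SLC11A2 all include 0.

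Levels of different genes can be set side by side only per length, for which the authors' FPKM (fragments scaled by gene length and library total) was used. FTL had 1816 ± 191 FPKM in the control, and the next were TFRC with 38.3 ± 7.29, NCOA4 with 35.8 ± 4.27 and BLVRA with 31.3 ± 2.22, whose ranges overlapped in that order (n = 3 each). FTH1 followed with 12.4 ± 0.555, HMOX1 with 6.49 ± 0.86, STEAP3 with 4.66 ± 0.63 and BLVRB with 3.70 ± 0.656, of which the last pair overlapped. SLC11A2 had 1.12 ± 0.0862 and SLC40A1 0.24 ± 0.0524.

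At 80 µM the order by FPKM had FTH1 second with 59.1 ± 1.95, above TFRC with 50.2 ± 2.87 and NCOA4 with 41.0 ± 2.35, and HMOX1 with 23.6 ± 0.594 above BLVRA with 15.1 ± 0.493. No neighbours overlapped in that group. These levels depend on the lengths that were used, and that of FTH1 also on how reads shared with its copies or BEST1 were counted, which is not given. The FPKM of FTH1 corresponds to a gene of 6071 bases, 2.99 times its merged exons in GENCODE 29, and that of FTL to 871 bases, 0.992 times. By CPM per kilobase of GENCODE exons, FTL stood at 1814 and FTH1 at 37.3 in the control, and FTH1 ranked 3 of the 10 at 40 µM instead of 5. FTL was first and SLC40A1 last in each group on both scales.

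In the 2 log2 fold changes against the control, the genes nearest to HMOX1 among 10497 others with a mean of at least 5 CPM were CCDC39, UTP14C, PIP4K2C, LEPR and FTH1P8. That they rose follows from this choice, so their adjusted p-values are given as a description. Control means of CCDC39, UTP14C, LEPR and FTH1P8 were 3.54, 2.64, 1.99 and 2.19 CPM, so these genes reached 5 CPM only through treated libraries. PIP4K2C had a control mean of 10.4 CPM. PIP4K2C, a lipid kinase, rose by 1.41 ± 0.15 at 40 µM and 1.70 ± 0.15 at 80 µM (adjusted p = 0.000998 and 2.86e-05), at a distance of 0.311 log2 units from HMOX1. LEPR, the leptin receptor, rose by 1.40 ± 0.26 and 2.06 ± 0.25 (adjusted p = 0.0207 and 0.000203). FTH1P8, a processed copy of FTH1, rose by 1.52 ± 0.30 and 2.34 ± 0.30 (adjusted p = 0.0299 and 0.000264). CCDC39 was called at 80 µM alone (1.94 ± 0.55, adjusted p = 0.019), and UTP14C at neither dose (1.57 ± 1.32 at 80 µM, adjusted p = 0.388).

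Beyond the 10, 107 other genes of haem and iron biology were listed, of which 86 could be tested. At 40 µM 4 of the 86 rose and 1 fell, 5.81% beside 2.3% of all genes, and at 80 µM 24 rose and 17 fell, 47.7% beside 34.9%. LRP1 and HEPH passed the filter only through the 80 µM libraries, and without them 23 of 84 rose and 17 fell at 80 µM. The count at 40 µM was 1 without control replicate 1, control replicate 3 or 40 µM replicate 3, 2 without 40 µM replicate 2 and 3 without control replicate 2 or any 1 of the 80 µM libraries. It was 1 with a replicate block. The 5 genes were STEAP1, FDXR, EPAS1, ABCB6 and BMP6, of which STEAP1 passed the filter only through the treated libraries. Median log2 fold changes of the 86 were 0.03 and -0.07.

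Around HMOX1, 9 genes that control its transcription were listed, and none was called at 40 µM, beside 2.3% of all genes. At 80 µM 5 of the 9 rose and 1 fell, where 17.4% of all genes were called higher and 17.5% lower (median log2 fold change 0.65, beside -0.0013 for all genes). BACH1, the haem-sensing repressor of HMOX1, went from 36.7 ± 11.5 CPM to 60.4 ± 4.20 and 106 ± 1.97 CPM (n = 3 each), a rise of 1.53 ± 0.19 on the log2 scale at 80 µM (adjusted p = 0.000203). Its relative BACH2, a repressor known from B cells, rose by 1.94 ± 0.17 (adjusted p = 2.43e-05) and NFE2L1, a relative of NRF2, by 1.28 ± 0.25 (adjusted p = 0.00272). Small MAF proteins pair with NRF2 or BACH1, and the 3 on the list differed at 80 µM. MAFG fell by 1.00 ± 0.14 (adjusted p = 0.000532), MAFF rose by 1.63 ± 0.36 (adjusted p = 0.00573) and MAFK was not called (adjusted p = 0.248). NFE2L2, which encodes NRF2 itself, was at 32.2 ± 4.35, 36.0 ± 9.53 and 50.6 ± 15.0 CPM and was not called (0.65 ± 0.25 at 80 µM, adjusted p = 0.0634). KEAP1, which marks NRF2 for destruction, had a log2 fold change of 0.24 at 80 µM (95% interval -0.30 to 0.78).

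Of 8 tested enzymes of haem synthesis, none was called at 40 µM, beside 2.3% of all genes. At 80 µM 2 rose and 3 fell (median -0.21). Of all genes, 17.4% were called higher and 17.5% lower at 80 µM (median -0.0013). ALAS1, the enzyme that opens the pathway outside red cells, rose by 0.51 ± 0.13 (adjusted p = 0.0114) and PPOX, which oxidises protoporphyrinogen, by 0.55 ± 0.11 (adjusted p = 0.00347). UROS, which closes the tetrapyrrole ring, fell by 0.64 ± 0.13 (adjusted p = 0.00321). Of 10 haem carriers, exporters and receptors, LRP1 left out, 1 rose at 40 µM, where 1.49% of all genes were called higher. At 80 µM 2 rose and 3 fell (median -0.18), beside 17.4% higher and 17.5% lower among all genes. ABCB6, a porphyrin transporter, went from 33.9 ± 2.50 to 49.9 ± 2.34 and 60.5 ± 2.08 CPM (n = 3 each). SLC48A1, which carries haem out of lysosomes, rose by 0.53 ± 0.14 at 80 µM (adjusted p = 0.0142, but 0.0566 without control replicate 1 and 0.0511 without 80 µM replicate 1). ABCG2, an efflux pump that also exports porphyrins, fell by 0.90 ± 0.20 (adjusted p = 0.00643).

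STEAP1, a relative of STEAP3, had 14, 13 and 7 counts without EGCG, 49, 55 and 55 at 40 µM and 181, 135 and 139 at 80 µM. It rose by 2.14 ± 0.29 and 3.73 ± 0.28 on the log2 scale (adjusted p = 0.00434 and 1.2e-05), where STEAP3 fell at 80 µM. STEAP1 reached the level of the filter on low counts in 2 of 3 control libraries and in all treated libraries. It thus passed only through the treated libraries, where it was high, so its calls are given as a description. Among 10 tested genes of other iron import, reduction and chaperoning STEAP1 was the 1 called at 40 µM, beside 2.3% of all genes. At 80 µM 2 rose and 2 fell (median -0.11), beside 17.4% higher and 17.5% lower among all genes (median -0.0013). SCARA5, a receptor for ferritin, rose by 1.00 ± 0.19, while the metal importer SLC39A8 fell by 0.72 ± 0.10 and the glutaredoxin GLRX3 by 0.52 ± 0.11 (adjusted p = 0.00219, 0.000539 and 0.00516).

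Of 10 tested genes of iron sensing and hepcidin control, 1 fell at 40 µM, where 0.813% of all genes were called lower. At 80 µM 3 rose and 2 fell (median 0.06), beside 17.4% higher and 17.5% lower among all genes (median -0.0013). BMP6, a ligand that drives hepcidin in the liver, went from 119 ± 9.23 to 87.4 ± 5.79 and 64.7 ± 2.30 CPM (n = 3 each), and its call at 40 µM (adjusted p = 0.0476) ended on leaving out any 1 of the 9 libraries (0.0505 to 0.152). ACVR1, a BMP receptor, rose by 1.02 ± 0.13 at 80 µM, and ERFE, an inhibitor of hepcidin, fell by 1.38 ± 0.28 (adjusted p = 0.00021 and 0.00375). BMPR2, a second BMP receptor, rose by 1.07 ± 0.26 (adjusted p = 0.0103). ACO1 and IREB2, which encode the iron regulatory proteins that bind the hairpins printed above, had log2 fold changes of -0.11 (95% interval -0.37 to 0.16) and 0.03 (-0.33 to 0.38) at 80 µM. For FBXL5, which removes IREB2 protein when iron is plentiful, the value was 0.23 (-0.12 to 0.59).

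Of 4 partners of storage, ferritinophagy and export with enough counts in more than 1 group, none was called at 40 µM, beside 2.3% of all genes. At 80 µM 3 rose, where 17.4% of all genes were called higher (median 0.40, beside -0.0013 for all genes). TAX1BP1, an autophagy receptor that works with NCOA4, rose by 0.83 ± 0.17 and WIPI2, a factor of autophagosome formation, by 0.49 ± 0.10 (adjusted p = 0.00362 and 0.00375). ATG9A rose by 0.31 ± 0.11 (adjusted p = 0.045, a call lost in 10 of 20 alternatives, among them a replicate block at 0.0646 and leaving out control replicate 1 or 2, at 0.154 and 0.106, 40 µM replicate 1 or 3, at 0.0545 and 0.0592, or any 1 of the 80 µM libraries, at 0.0825 to 0.103). HEPH, a ferroxidase that works with ferroportin, had 3, 3 and 2 counts without EGCG, 4, 8 and 5 at 40 µM and 18, 22 and 11 at 80 µM. It passed the filter on low counts through the 80 µM libraries alone, so its counts are given as a description.

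Of 20 genes of mitochondrial iron and iron-sulfur assembly, 1 rose at 40 µM, where 1.49% of all genes were called higher. At 80 µM 3 rose and 6 fell (median -0.30), beside 17.4% higher and 17.5% lower among all genes. FDXR, which feeds electrons to iron-sulfur assembly, went from 11.6 ± 2.66 to 22.2 ± 2.26 and 49.9 ± 1.92 CPM (n = 3 each). HSPA9, the mitochondrial chaperone of this pathway, and ISCU, its scaffold, rose by 0.87 ± 0.10 and 0.58 ± 0.10 at 80 µM (adjusted p = 0.000107 and 0.00139), and the glutaredoxin GLRX5 fell by 0.85 ± 0.13 (adjusted p = 0.000664). BOLA3, an assembly factor, fell by 1.31 ± 0.24 and LYRM4, a partner of the cysteine desulfurase, by 0.89 ± 0.16 (adjusted p = 0.00201 and 0.00168). None of 9 genes of cytosolic iron-sulfur assembly was called by edgeR at 40 µM, beside 2.3% of all genes, or at 80 µM, beside 34.9%. At both doses 0 of the 9 had an unadjusted p under 0.05, beside 3188 and 7150 of all 15982 genes. NUBP1, the member of that list with the smallest p, had a log2 fold change of -0.28 at 80 µM (95% interval -0.61 to 0.06).

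Of 9 tested mRNAs known to carry an iron-responsive element, 5 are among the 10 genes. At 40 µM 4 of the 9 rose and at 80 µM 6, where 1.49% and 17.4% of all genes were called higher. None was called lower against the control, beside 0.813% and 17.5% of all genes. The medians of 0.71 and 0.66 were the values of SLC40A1, which was not called, beside 0.01 and -0.0013 for all genes. For the 4 mRNAs outside the 10 genes the medians were 0.39 and 0.98, with 1 and 3 called higher. FTH1, FTL and TFRC, described above, make 3 of the calls among the 9 at each dose. Besides FTH1, FTL and TFRC, EPAS1, the hypoxia factor HIF-2α, rose by 0.74 ± 0.16 at 40 µM and 1.37 ± 0.16 at 80 µM, and the phosphatase CDC14A by 2.14 ± 0.30 at 80 µM (adjusted p = 0.0398, 0.000139 and 0.000411). The remaining call at 80 µM was the kinase CDC42BPA (0.60 ± 0.14, adjusted p = 0.00719). At 40 µM the call of EPAS1 ended on leaving out any 1 library (0.0594 to 0.146), that of ABCB6 without any control library or without 40 µM replicate 2 or 3 (0.0596 to 0.0818), and that of FDXR without control replicate 1 or 3 or 40 µM replicate 3 (0.0556, 0.074 and 0.0586). With a replicate block the adjusted p was 0.0622 for ABCB6, 0.0517 for FDXR, 0.0852 for EPAS1 and 0.0922 for BMP6.

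**Figure D4:**
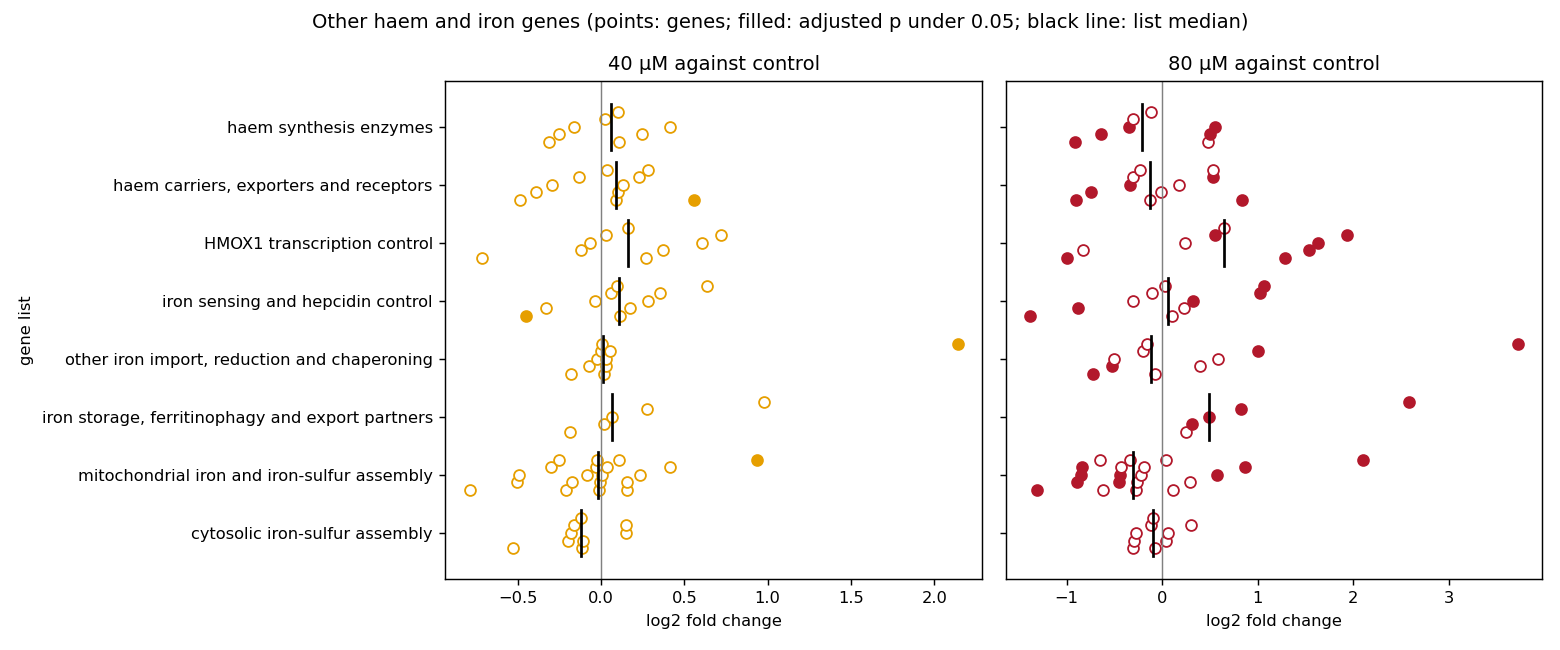
Log2 fold change of each tested gene of 8 lists of haem and iron biology at 40 µM and at 80 µM against control; filled points had an adjusted p under 0.05 by edgeR, and black lines are list medians. Points and medians include LRP1 and HEPH, which passed the filter only through the 80 µM libraries, so the filled point of HEPH is a description. At 80 µM the medians drawn are -0.13 for carriers, exporters and receptors and 0.49 for storage, ferritinophagy and export partners. Without these genes they are -0.18 and 0.40. At 40 µM STEAP1, at 2.14, lies far to the right of the other points, and at 80 µM filled points lie on both sides of 0 in most lists. STEAP1 passed the filter only through the treated libraries, so its filled points are a description too.

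Library totals ran from 12674490 to 16427343 counts. Plasma cell and myeloma markers summed to 6510 to 6884 CPM without EGCG, 6211 to 6893 at 40 µM and 5453 to 6240 at 80 µM, and all 10 were detected. Red cells and macrophages handle much of the body's haem, so their markers were checked. The monocyte and macrophage list stayed between 0.428 and 1.15 CPM in every library, with C1QA, C1QB, C1QC, VSIG4 and 3 more of its 13 genes at 0 in all 9. The erythroid list summed to 55.0 to 66.7 CPM without EGCG, 46.0 to 57.3 at 40 µM and 18.6 to 28.6 at 80 µM, led by HEMGN, with 7 of its 14 genes, SLC4A1 and AHSP among them, at 0 throughout. The mature B cell list fell over the same doses (55.3 to 63.6, 41.7 to 43.2 and 20.7 to 27.6 CPM), and the part of either list in the falls of BLVRA and STEAP3 was not tested. T and NK cell markers summed to 3.65 to 8.33 CPM and stromal and endothelial markers to 5.73 to 16.8 CPM over the 9 libraries, with 2 of 10 and 3 of 10 genes at 0.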

How the data were processed

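Per the file headers, the authors deposited 1 table that gives each Ensembl gene a raw count in every library. The same table holds the authors' FPKM, which was used for levels and in no test. CASAVA 1.8, HISAT2, SAMtools 1.3.1, edgeR and GRCh38 appear, per the submitters' processing notes, without roles. The sources used here give no counting program, strand setting or annotation release. Symbols were found for 60419 of 60675 rows.

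Counts were filtered with filterByExpr (15982 genes kept), scaled by TMM and tested with edgeR 4.0.16 in R 4.3.3, in 1 fit over all 9 libraries with dose as the factor. A further contrast set the second dose step against the first. The error after ± of a log2 fold change is its standard error, and that of CPM or FPKM is the SD. Ratios of counts were tested by exact permutation over 1680 assignments. The code was tested on simulated data. DESeq2 1.42.0 and limma 3.58.1 served as alternatives. Replicate pairs differed beyond sampling noise (chi-square of 12.7 to 33.2 for each degree of freedom), so all were counted.

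The 10 genes and all lists were chosen with earlier results of these data known, so no p-value was adjusted over a list. Named beside the 10 were, from each other list, the 4 genes with the smallest p against the control and those called at both doses, and the 5 genes nearest to HMOX1. CDC42BPA, BOLA3, LYRM4, LRP1, NFE2L2, KEAP1, MAFF, MAFK, ACO1, IREB2, FBXL5 and BEST1 were named for their known role or position after their values were seen. Some listed genes are not reported here.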

Additional observations from a re-analysis of the deposited data

How the results depend on the processing

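Of 40 pairs of a member and a comparison, 17 were called, 13 kept the call in every alternative run and 4 lost it in at least 1, while none of the 17 changed sign. Uncalled values near 0 did change sign. For NCOA4 between the doses (reported as -0.01) the log2 fold change was 0.0025 with DESeq2, 0.0024 with RLE scaling, 0.0198 with upper-quartile scaling, 0.0274 with library size alone, 0.0118 with at least 10 counts in all 9 libraries and 0.0065 without the mitochondrially encoded genes. On leaving out 1 library, values ran from -0.106 to 0.0842 for NCOA4 and from -0.168 to 0.0959 for SLC40A1 between the doses, from -0.0503 to 0.156 for FTH1 and from -0.346 to 0.145 for BLVRB in the second step less the first, and from -0.532 to 0.123 for NUBP2 at 80 µM. The value of FTH1 was -0.0571 with its copies summed. The log2 TFRC to FTH1 ratio at 40 µM less control ran from -0.256 to 0.0761.

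All genes called at 40 µM numbered 368, and 859 with DESeq2, 228 without a filter, 153 with only the 6 libraries compared and 136 to 469 on leaving out 1 library. Between the doses 3674 became 2101 to 4059 on leaving out 1. For the second step against the first, 47 became 705 with DESeq2, 73 with library size alone, 25 without a filter, 117 with at least 10 counts in all 9 libraries and 10 to 44 on leaving out 1, and the 2 members called became 1 to 2. The 5 other haem and iron genes called at 40 µM became 2 without a filter, 1 with only the 6 libraries compared and 1 to 4 on leaving out 1. The cause was not tested. With a replicate block, genes called were 183 at 40 µM and 6 for the second step, members called for the second step 0, and other haem and iron genes at 40 µM 1. The labels state no pairing, and deviations of same-numbered libraries correlated at -0.139 to 0.0513, so the numbers were not taken as pairs. Depth limits SLC40A1, with 14 to 36 counts per library.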
